A study of Mus musculus with 9 samples.

Results

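The genes described here are 10 neuropeptide genes of sensory neurons other than those for CGRP: Tac1, Gal, Adcyap1, Cartpt, Nmb, Nppb, Sst, Vip, Npy and Penk. They were taken as a list by name, and all 10 were found among the 21536 genes of the deposited table. The RNA came from trigeminal ganglia, which hold the sensory neurons of the face and head, of wild type FVB/N mice aged 3 to 6 weeks. Neurons were enriched on a Percoll gradient and by depletion of glia, and 9 Drop-seq runs were made from cells of pooled animals. There was no treatment and no second genotype, so the comparisons are between kinds of neurons within the ganglion. A barcode stands for 1 captured cell, and a UMI for 1 counted transcript. Because barcodes do not name their run, all cells were 1 sample without replicates, and groups of cells could not be tested against each other.

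Neuropeptides are made as long precursors that are cut and trimmed in secretory vesicles and released on firing, from the central end of the axon in the brainstem and from its peripheral end in skin, cornea, teeth and meninges. Peptides of nociceptors such as substance P and PACAP widen vessels and promote inflammation at the periphery and excite second-order neurons centrally, whereas B-type natriuretic peptide and somatostatin are known from itch neurons. Most peptides act on G protein coupled receptors of neighbouring cells, and a single neuron can make several of them.

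Neurons were barcodes with 500 to 7500 genes, a UMI of at least 3 of the 6 genes Tubb3, Scn9a, Snap25, Nefl, Nefm and Uchl1, and none of Epcam, which is a gene of epithelial and pituitary cells. The rule found 3855 neurons among 6997 barcodes, with a median of 3014 UMIs and a range of 1000 to 55655. They were sorted into 7 groups by first match. The Trpm8 group (244 neurons, cold sensing) had at least 2 UMIs of Trpm8 and the Mrgprd group (379) at least 2 of Mrgprd. A single UMI was enough for the Mrgpra3 group (49, itch), the Il31ra group (45, itch) and the Cd34 group (320, a marker of low-threshold C fibres). The Nefh group (450, large neurons) had at least 5 UMIs of Nefh and none of Trpv1, and the Calca/Trpv1 group (917, nociceptors) at least 5 of Calca and 1 of Trpv1. The other 1451 neurons matched no rule. They were shallow, with a median of 1833 UMIs against 3413 to 5835.5 in the 7 groups, so neurons of every kind can be among them. In all, 354 neurons met more than 1 rule and went to the first.

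Levels are given as UMIs of a gene per 1000000 UMIs of all cells of a group (CPM), with exact Poisson 95% intervals in parentheses, and shares of neurons with a UMI with exact binomial (Clopper-Pearson) 95% intervals. Where no cell had a UMI, the limit given is 3 cells of the total, which bounds cells with a UMI and not cells that express the gene. Intervals and limits cover counting error only and not differences between mice or runs. Those of levels and of ratios of levels take each UMI as independent and also leave out differences between cells of a group. A single neuron can therefore move a level beyond its interval, and intervals that do not overlap are no test between groups. A deeper cell shows more genes, so each share is also given as the share expected if every cell were cut to 1000 UMIs. Free RNA gives a UMI to cells that do not make a transcript, and shares were read against cells that should lack these peptides, namely 343 glia-like ones with 1572 UMIs at the median and 429 red blood cell-like ones with 1415. In both of these, Tac1, Cartpt and Nmb led the peptide UMIs, with Tac1 at 55.8% and 51.7% of them. In 714 pituitary-like barcodes (median 2232.5 UMIs) the levels were higher, at 412 CPM for Tac1 and 331 for Cartpt, with up to 396 UMIs of Tac1 and 447 of Cartpt in a single barcode. Without the highest barcode they were 249 and 147 CPM.

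The plot of levels shows the main division. Tac1, Gal, Adcyap1 and Cartpt were highest in the Calca/Trpv1 group, Nmb in the Mrgprd group, and Nppb and Sst in the Il31ra group, whereas Vip, Npy and Penk were each carried by a few neurons. Over the 7 groups, the highest CPM was 1726 times the lowest for Sst, 1250 times for Nppb and 20.2 times for Tac1, with any sum below 3 UMIs set to 3. The median of this range over the 10772 genes with at least 100 UMIs in neurons was 2.47-fold.

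**Figure D1:**
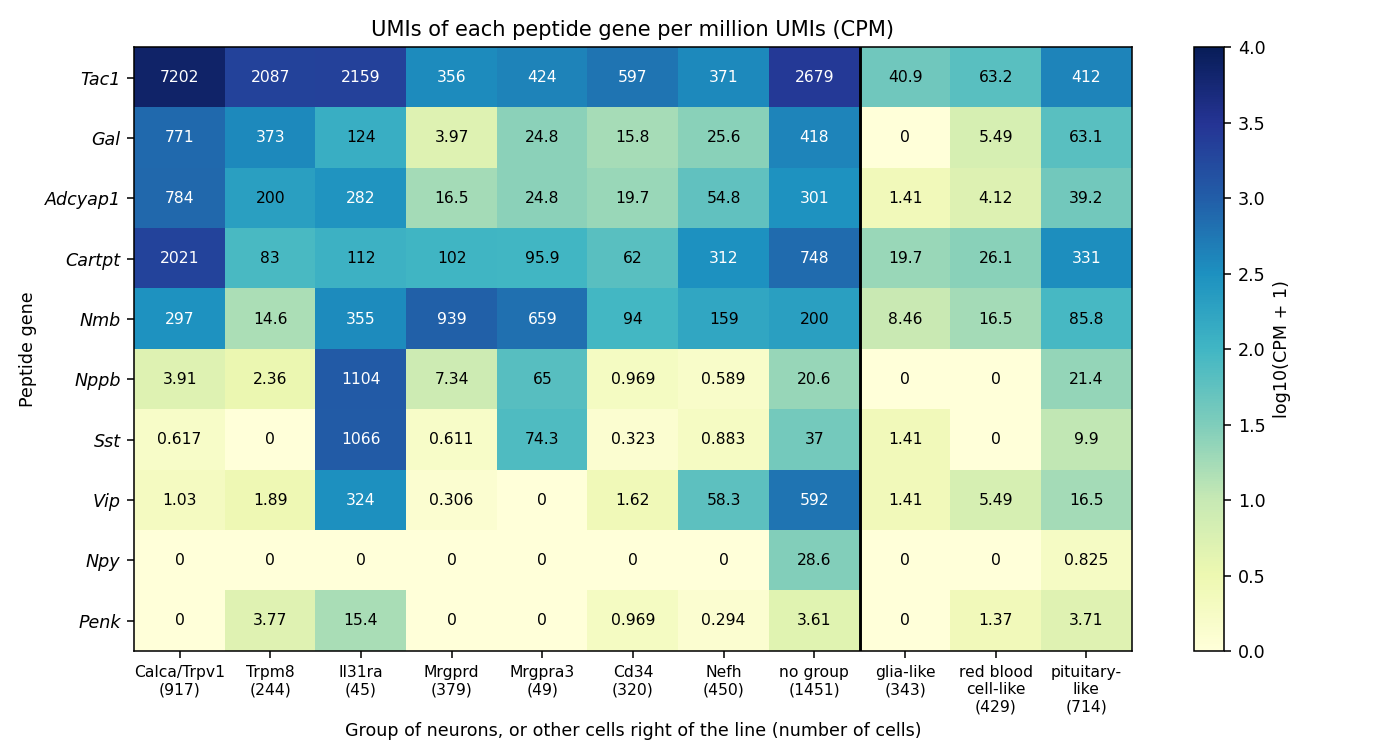
UMIs of each peptide gene per 1000000 UMIs (CPM, numbers in the boxes; colour on a log10 scale) in the 7 groups of neurons, in neurons of no group and, right of the line, in other cells, with the number of cells in parentheses. Tac1 reached 7202 CPM in the Calca/Trpv1 group, and Nppb and Sst exceeded 1000 CPM only in the Il31ra group.

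Tac1, which encodes substance P and neurokinin A, lies on chromosome 6 from 7555061 to 7562978 (GRCm38 assembly, used for all positions). It was the most abundant of the 10 by UMIs, with 54029 of the 90126 peptide UMIs in neurons, and 2570 neurons (66.7%) had a UMI of it. In the Calca/Trpv1 group 98.1% (97.0 to 98.9%) of neurons had Tac1, with a median of 26 UMIs and a highest value of 226, and the level was 7202 CPM (7127 to 7278). Neurons of no group came next with 2679 CPM, followed by the Il31ra group with 2159 (1983 to 2345) and the Trpm8 group with 2087 (2026 to 2149), whose intervals overlapped. The Il31ra value leaned on 1 neuron with 211 UMIs and was 1344 CPM without it. Tac1 stood at 554 CPM in the 36 Il31ra neurons with Nppb and at 6236 in the 9 without, whereas in the Trpm8 group 86.5% of neurons had Tac1. The Cd34 group had 597 CPM (570 to 625). The Mrgpra3, Nefh and Mrgprd groups followed with 424, 371 and 356 CPM, and neighbours in this order overlapped. The Mrgpra3 value fell to 176 CPM without 1 neuron with 80 UMIs.

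Even the lowest of these levels stood above the 40.9 CPM of glia-like and 63.2 CPM of red blood cell-like cells, but not above the 412 CPM of pituitary-like barcodes. At 1000 UMIs per cell, 16.8% of Mrgprd neurons, 14.9% of Mrgpra3 neurons and 18.1% of Nefh neurons had Tac1, against 3.91% and 6.28% of these other cells. Most neurons of the 3 groups thus had either no Tac1 UMI or few, and their median was 0. In the Mrgprd group 186 of 379 neurons had Tac1, of which 120 had at least 2 UMIs and 1 had 111.

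Gal encodes galanin, a peptide of sensory neurons that can dampen or promote transmission, and lies on chromosome 19 from 3409915 to 3414544. It had a UMI in 1323 neurons (34.3%). The level was 771 CPM (746 to 796) in the Calca/Trpv1 group, where 74.5% (71.5 to 77.3%) of neurons had it, and 373 (347 to 400) in the Trpm8 group, where 57.0% (50.5 to 63.3%) did. At 1000 UMIs these shares were 47.8% and 26.8%. Neurons of no group had 418 CPM, which overlapped the Trpm8 group, and the Il31ra group had 124 from 5 of 45 neurons. The remaining groups had 25.6 CPM or less. In the Mrgprd group only 11 of 379 neurons had Gal, and the share of 0.274% at 1000 UMIs lay below the 0.474% of red blood cell-like cells, so Gal in that group was read as background.

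Adcyap1 encodes PACAP, a vasodilator peptide of interest in headache, and lies on chromosome 17 from 93198245 to 93206541. It followed Gal closely, with a UMI in 1514 neurons (39.3%) and 784 CPM (759 to 809) in the Calca/Trpv1 group, where 83.9% (81.3 to 86.2%) of neurons had it. The Trpm8 group had 199.9 CPM (181 to 220) and a share of 51.6%, which was 15.8% at 1000 UMIs. In the Nefh group Adcyap1 was seen in 95 of 450 neurons (21.1%), at 54.8 CPM (47.2 to 63.2), against 34 neurons and 25.6 CPM (20.5 to 31.6) for Gal. The share of Nefh neurons at 1000 UMIs was 5.27% for Adcyap1 and 2.42% for Gal, beside 0.168% and 0 of 343 for glia-like cells, 0.440% and 0.474% for red blood cell-like cells and 0.861% and 2.25% for pituitary-like barcodes. The Gal share was thus close to the last of these. The Il31ra group had 282 CPM of Adcyap1 from 8 neurons, of which 1 held 26 of the 73 UMIs. In the Mrgpra3 group a single neuron held all 8 UMIs.

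Cartpt encodes CART, a peptide studied mainly for feeding and reward circuits, and lies on chromosome 13 from 99898483 to 99910179. Its distribution over neurons was the most uneven of the common peptides. A UMI was seen in 1291 neurons (33.5%), of which 364 had only 1 and 14 had 100 or more, and 100 neurons held 50% of all Cartpt UMIs, compared with 328 for Tac1. In the Calca/Trpv1 group 70.7% (67.6 to 73.6%) of neurons had Cartpt, with a median of 3 UMIs, a highest value of 353 and a level of 2021 CPM (1981 to 2061). The Nefh group had 312 CPM (293 to 331) in 86 neurons. A single Nefh neuron with 340 UMIs held much of this, and the level without it was 212. In the other 5 groups the level ran from 62.0 CPM in the Cd34 group to 112 in the Il31ra group, and neighbours in the order overlapped. Without its highest neuron the Cd34 group had 35.9 CPM, and the Il31ra group 73.4. At 1000 UMIs the share in the Cd34 group, 2.33%, was no higher than the 2.41% of red blood cell-like cells, whereas that of Mrgprd neurons was 7.73%. The Trpm8 group had a share of 3.31% and a level of 83.0 CPM (49.97 without 1 neuron with 70 UMIs), above the shares and levels of glia-like (19.7 CPM) and red blood cell-like cells (26.1 CPM) but with a share below the 5.26% of pituitary-like barcodes.

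**Figure D2:**
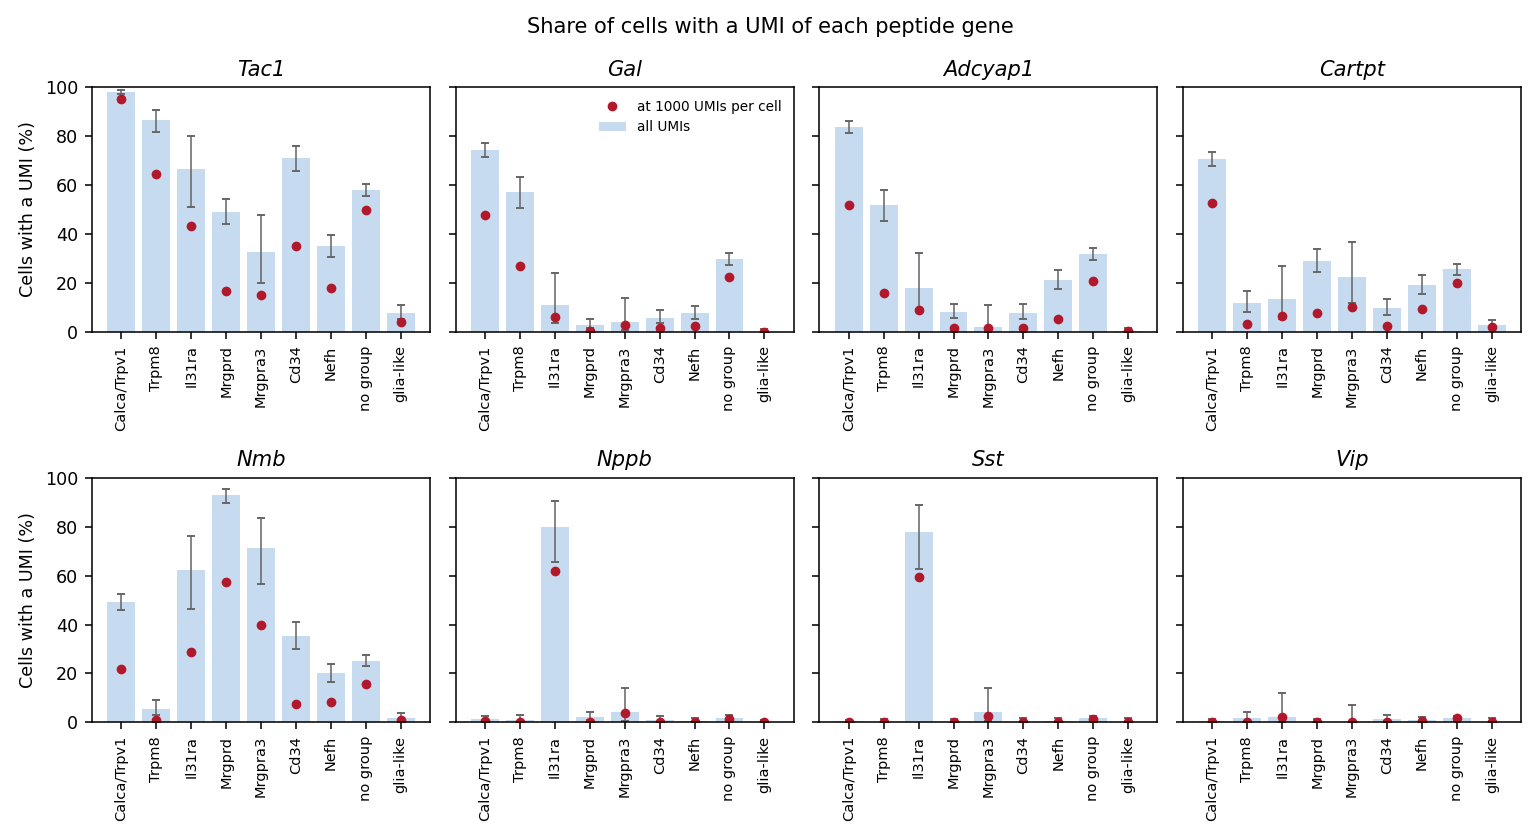
Share of cells with a UMI of 8 peptide genes (bars, with exact binomial 95% intervals) in each group of neurons and in glia-like cells, and the same share expected at 1000 UMIs per cell (points). The Calca/Trpv1 group is highest for Tac1, Gal, Adcyap1 and Cartpt, the Mrgprd group for Nmb with 92.9%, and the Il31ra group for Nppb and Sst with 80.0% and 77.8%, while no bar of Vip passes 2.22%.

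Against all other neurons, 4 of the 9 peptide genes with at least 100 UMIs in neurons, namely Tac1, Gal, Adcyap1 and Cartpt, were at least 4-fold higher in CPM in the Calca/Trpv1 group. Among all 10772 genes tested, 1.05% were. The ratios were 7.19 (6.94 to 7.45) for Cartpt, 6.67 (6.31 to 7.05) for Adcyap1, 6.08 (5.97 to 6.19) for Tac1 and 4.98 (4.73 to 5.24) for Gal, with exact binomial intervals. The choice of this group by Calca, itself a peptide gene, is part of its definition. In the Trpm8 group no peptide gene was 4-fold higher, against 0.641% of all genes, with Gal at a ratio of 1.29 and Tac1 at 0.79. Numbers of lower genes are not given, because Vip and Npy reached 100 UMIs only through a few neurons and so had to be lower in groups without them.

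Nmb encodes neuromedin B, a relative of bombesin that excites spinal neurons in itch and pain circuits, and lies on chromosome 7 from 80902227 to 80905062. Its order over groups was unlike that of the previous 4 genes. In the Mrgprd group, which is known for polymodal nociceptors of the epidermis, 92.9% (89.8 to 95.3%) of neurons had Nmb and the level was 939 CPM (906 to 973). The Mrgpra3 group had 659 CPM (573 to 754) and a share of 71.4%, and the Il31ra group 355 CPM (286 to 436) and a share of 62.2%. The Calca/Trpv1 group had 297 CPM (282 to 313), which overlapped the Il31ra group, from 450 of its 917 neurons. Neurons of no group had 200.3 CPM, the Nefh group 159 and the Cd34 group 94.0. In the Trpm8 group Nmb was seen in 13 of 244 neurons at 14.6 CPM, of which 1 neuron held 14 of 31 UMIs. That level did not exceed the 16.5 CPM of red blood cell-like cells, and the Nmb share of 1.08% at 1000 UMIs lay between those of these cells and of glia-like cells, 1.63% and 0.953%.

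Nmb was the only 1 of the 9 peptide genes at least 4-fold higher in the Mrgprd group than in the other neurons, with a ratio of 4.98 (4.74 to 5.23), where 1.34% of all genes were. In the Mrgpra3 group no peptide gene was 4-fold higher (0.65% of all genes), with Nmb at 2.19 (1.90 to 2.51). In the Cd34 group none was 4-fold higher (0.771% of all genes), and Nmb had a ratio of 0.274 (0.243 to 0.308). In the Nefh group none was higher (1.1% of all genes), and Nmb had a ratio of 0.474 (0.433 to 0.518).

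Nppb encodes B-type natriuretic peptide, the transmitter by which a set of itch neurons reaches the spinal cord, and lies on chromosome 4 from 147985786 to 147987205. Sst encodes somatostatin, a peptide that inhibits many of its target cells, and lies on chromosome 16 from 23889573 to 23891342. They stand together because both marked the same small set of neurons. The 300 bases from 250 before to 50 after the annotated start of transcription (RefSeq, GRCm38.p6, 5′ to 3′ on the strand of the gene) are shown for this pair. Capitals mark TATAAA in Nppb, at chr4:147985650-147985949 on the plus strand, and a match to the cyclic AMP response element letters TGACGTC or their complement in Sst, at chr16:23890795-23891094 on the minus strand.
Nppb: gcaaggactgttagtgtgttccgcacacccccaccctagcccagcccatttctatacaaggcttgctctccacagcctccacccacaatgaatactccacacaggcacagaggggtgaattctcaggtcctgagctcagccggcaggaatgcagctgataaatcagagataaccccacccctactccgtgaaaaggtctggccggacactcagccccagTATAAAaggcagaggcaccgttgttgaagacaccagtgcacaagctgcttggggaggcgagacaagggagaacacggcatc
Sst: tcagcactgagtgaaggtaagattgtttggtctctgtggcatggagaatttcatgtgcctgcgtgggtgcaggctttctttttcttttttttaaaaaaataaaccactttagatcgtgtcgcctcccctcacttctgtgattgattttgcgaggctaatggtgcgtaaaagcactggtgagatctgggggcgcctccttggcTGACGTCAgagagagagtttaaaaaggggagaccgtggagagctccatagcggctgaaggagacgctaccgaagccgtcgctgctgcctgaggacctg
The TATAAA of Nppb began 31 bases before the start and the TGACGTC of Sst 48 bases before it. These starts were not the ends of the gene positions given above. The Sst window lay wholly inside the positions of Sst, and the Nppb window ran across the first position of Nppb. The windows of the pair did not share either motif. Of the 9 peptide genes with a window in the table (10 windows, since Adcyap1 has 2), TGACGTC or its complement GACGTCA was found in Adcyap1, Sst, Cartpt and Vip, and TATAAA or its complement TTTATA in Adcyap1, Nppb and Vip. Over all 27025 genes with a window the same letters were found in 3.60% and 15.7%. A match is a description of these letters and was not tested for binding.

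In the Il31ra group 36 of 45 neurons (80.0%, 65.4 to 90.4%) had Nppb and 35 (77.8%, 62.9 to 88.8%) had Sst. The levels were 1104 CPM (980 to 1240) and 1066 CPM (944 to 1199), a median of 4 UMIs in each case and highest values of 38 and 49. Among the other neurons the levels were 7.16 and 8.03 CPM, so the ratios were 154 (126 to 189) and 133 (109 to 162). This pair was the only one of the 9 peptide genes at least 4-fold higher in this group, where 0.641% of all genes were. The Mrgpra3 group was second among the 7, with 65.0 CPM of Nppb and 74.3 of Sst. These rested on 2 of its 49 neurons, which held all 21 Nppb and all 24 Sst UMIs and had 8 and 7 UMIs of Il31ra, so that they met the rule of the Il31ra group as well.

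Elsewhere the pair was near absent. Sst had no UMI in the 244 Trpm8 neurons, which allows a share of up to 1.23%, and 1 to 3 neurons with a UMI in each of the Mrgprd, Cd34, Nefh and Calca/Trpv1 groups. Nppb had a UMI in 14 Calca/Trpv1 neurons, with at most 2 UMIs each and a share of 0.553% at 1000 UMIs, and in none of the 343 glia-like and 429 red blood cell-like cells. Of the neurons of no group, 28 had Nppb and 27 had Sst.

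**Figure D3:**
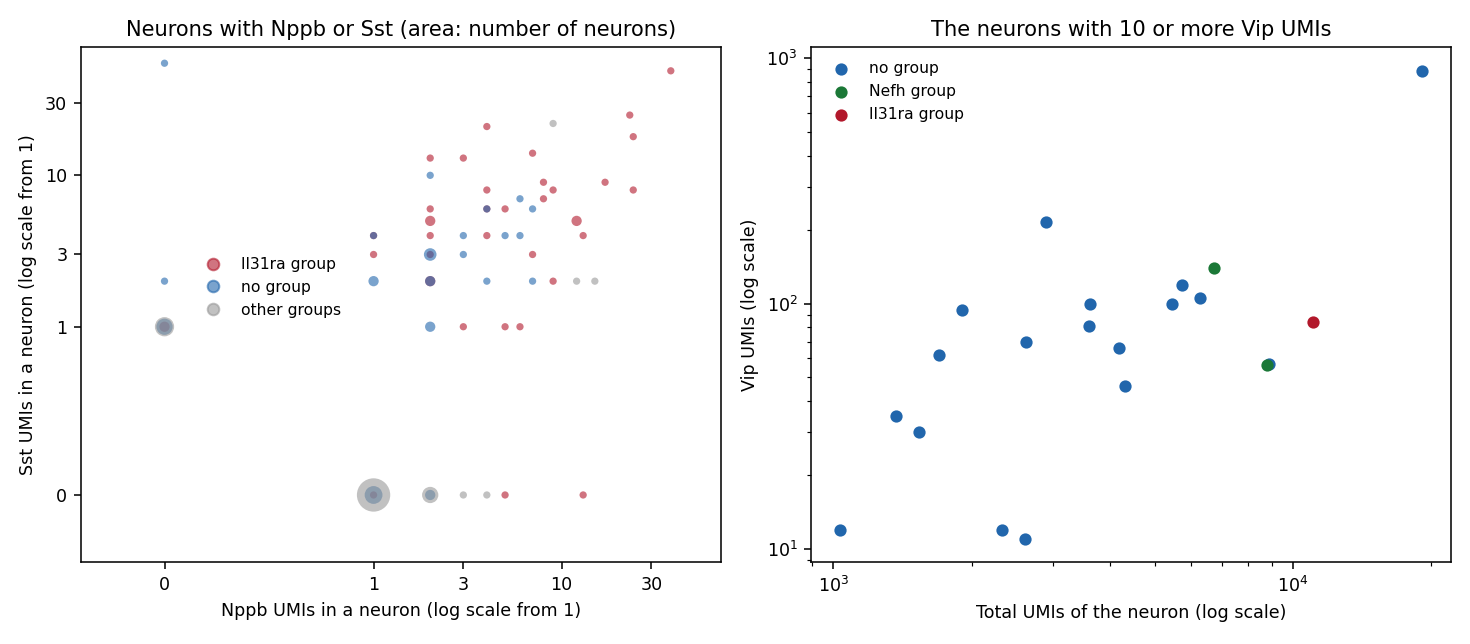
Left, UMIs of Nppb and Sst in the 111 neurons with either, on log scales above 1, with the area of a point for the number of neurons and the colour for the group. Right, Vip UMIs against total UMIs, both on log scales, for the 21 neurons with 10 or more Vip UMIs, of which 18 were in no group.

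A UMI of both Nppb and Sst was seen in 56 neurons, of Nppb alone in 39 and of Sst alone in 16. The neurons with both were 33 of the Il31ra group, 20 of no group, 2 of the Mrgpra3 group and 1 of the Mrgprd group, which had 9 Il31ra UMIs. Of the 62 neurons with at least 2 Nppb UMIs, 82.3% had Sst, whereas 15.2% of the 33 with a single Nppb UMI did. Conversely, 96.2% of the 53 neurons with at least 2 Sst UMIs had Nppb, and 26.3% of the 19 with a single one. The 2 exceptions were neurons of no group without Nppb, of which 1 had 2 Sst UMIs and the other 55, the highest value of any neuron.

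Markers of this kind of itch neuron other than the peptides moved with the pair. Il31ra, a subunit of the interleukin 31 receptor, had a UMI in 64.3% (50.4 to 76.6%) of the 56 neurons with both peptides, in 10.9% of the 55 with 1 of them and in 0.614% of the 3744 with neither. Cysltr2, a leukotriene receptor, was seen in 44.6%, 9.09% and 0.748%, and Htr1f, a serotonin receptor, in 28 of the 56, in 3.64% and in 0.935%. Npy2r, a receptor of neuropeptide Y, had shares of 58.9%, 12.7% and 2.46%. Mrgpra3 was not among them, with 3.57% and 1.52% of neurons with both and with neither. Neurons with both had little Calca (61.0 CPM against 4148 with neither) and less Tac1 (473 against 2611 CPM), but a similar level of Nmb (377 against 306 CPM).

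Vip, which encodes vasoactive intestinal peptide and lies on chromosome 10 from 5639193 to 5647617, had a distribution unlike that of any gene above. Only 44 neurons had a UMI of it and 3 of them held 50% of the 2426 UMIs. The 21 neurons with 10 or more held 98.3% of the UMIs, with 11 to 889 UMIs each and a median of 70, or 0.422% to 7.43% of all UMIs of the neuron. The other 23 neurons with Vip had at most 9 UMIs, and 19 had 1. By group, neurons of no group had 592 CPM (567 to 617), and 345 without the neuron with 889 UMIs. The 324 CPM of the Il31ra group came from 1 neuron with 84 UMIs, and nearly all of the 58.3 CPM of the Nefh group from a pair with 140 and 56 UMIs. In the other 5 groups the level was between 0 and 1.89 CPM, below the 5.49 CPM of red blood cell-like cells.

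The 21 neurons with 10 or more Vip UMIs were described with genes picked after their values had been seen, so the following is a description. They met the neuron rule, and 20 had Prph, which was not part of it, but several genes shared by trigeminal sensory neurons were near absent. Pou4f1, Isl1 and Slc17a6, a pair of sensory transcription factors and the vesicular glutamate transporter, were each seen in 1 of them, against 1600, 1978 and 2507 of all 3855 neurons. Slc5a7, the choline transporter, was seen in 17, Nos1, a nitric oxide synthase, in 18 and Dbh, which makes noradrenaline, in 9, whereas Th, an earlier enzyme of the same pathway, was seen in 0. Avil, which is also known from sensory neurons, was seen in 15 of them. On most of these markers the 21 cells went against the label of sensory neuron, and what they are was not tested. Of the other peptide genes, Gal was seen in 13 of them at 1494 CPM (831 without the neuron with 889 Vip UMIs) and Adcyap1 in 16 at 426 CPM, whereas Cartpt and Nmb were each seen in 1.

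Npy encodes neuropeptide Y, a peptide of sympathetic neurons and of injured sensory neurons, and lies on chromosome 6 from 49822710 to 49829507. It had a UMI in 3 neurons, all of no group, with 94, 5 and 4 UMIs. The last 2 were among the neurons with 10 or more Vip UMIs, with 94 and 57 of Vip, and the first had no Vip. None of the 917 Calca/Trpv1 neurons had Npy, which allows a share of up to 0.327%. Penk encodes the enkephalins, opioid peptides that quiet their target neurons, and lies on chromosome 4 from 4133536 to 4138815. It had 29 UMIs in 14 neurons, with at most 5 UMIs each, and none in the Calca/Trpv1, Mrgprd and Mrgpra3 groups. Its highest level, 15.4 CPM in the Il31ra group, came from 4 UMIs of 1 neuron, the same that held 84 Vip UMIs, and the next was 3.77 CPM in the Trpm8 group. The share of all neurons with Penk was 0.363%, or 0.146% at 1000 UMIs, and in red blood cell-like cells, of which 1 of 429 had it with 1 UMI, these shares were 0.233% and 0.143%. Of the 14 neurons with Penk, 6 had at least 2 UMIs, and 3 were among the 21 with 10 or more Vip UMIs.

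At least 1 of the 10 genes was seen in 3210 neurons, or 83.3% (82.1 to 84.4%), and at least 2 in 2336, or 60.6% (59.0 to 62.1%). In glia-like cells these were 41 and 3 of 343. With every neuron cut to 1000 UMIs, 69.0% were expected to show at least 1 gene and 41.4% at least 2. The plot of the number of peptide genes per cell shows how the groups differed. The mean number was 3.79 in the Calca/Trpv1 group and 3.33 in the Il31ra group, followed by 2.16 in the Trpm8, 1.85 in the Mrgprd, 1.41 in the Mrgpra3, 1.32 in the Cd34 and 1.05 in the Nefh group. The order at 1000 UMIs was the same, from 2.70 genes in the Calca/Trpv1 group to 0.442 in the Nefh group. Counted in UMIs, the 10 genes made up 11081 CPM in the Calca/Trpv1 group, 5541 CPM in the Il31ra group and 792 CPM in the Cd34 group. Within the Il31ra group the sum was 4525 CPM in the 36 neurons with Nppb and 8123 in the 9 without, of which 456 of 594 peptide UMIs were Tac1.

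**Figure D4:**
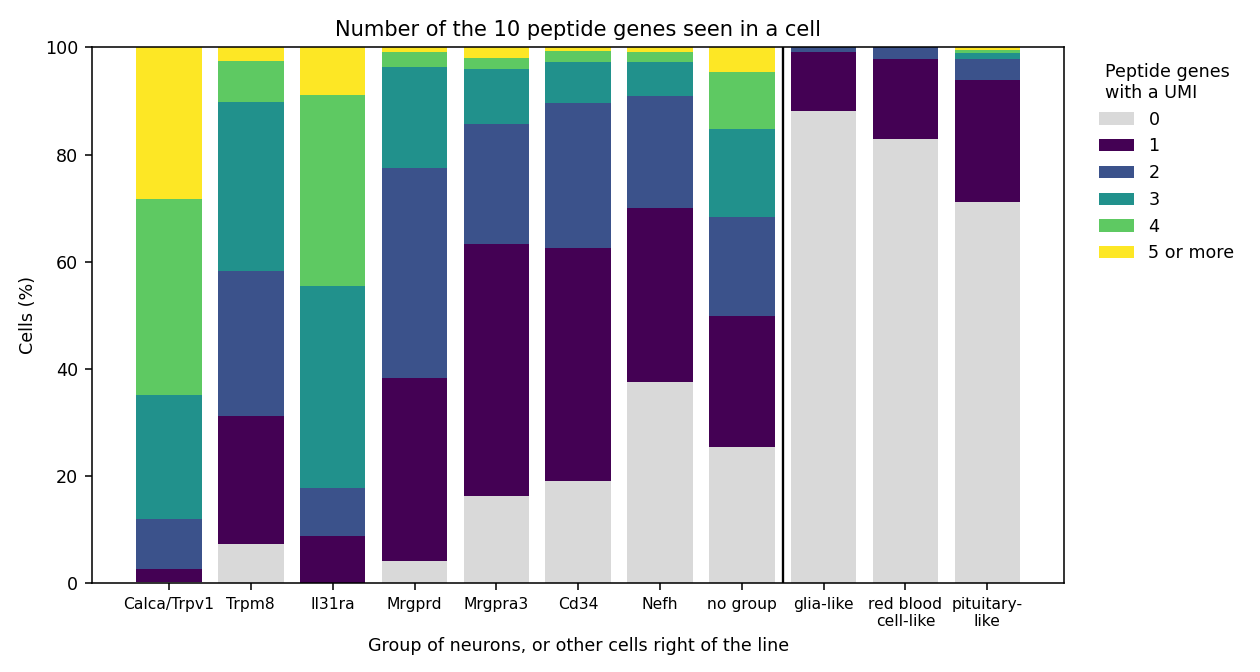
Share of cells (stacked to 100%) with a UMI of 0, 1, 2, 3, 4 or at least 5 of the 10 peptide genes, for each group of neurons and, right of the line, other cells. At least 4 genes were seen in 64.9% of Calca/Trpv1 and 44.4% of Il31ra neurons but in 2.67% of Nefh neurons, of which 37.6% had none.

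The commonest combinations differed as well. In the Calca/Trpv1 group 244 of 917 neurons (26.6%) had Tac1, Gal, Adcyap1, Cartpt and Nmb, and 231 (25.2%) had the same genes without Nmb. In the Trpm8 group Tac1 with Gal and Adcyap1 led with 66 of 244 neurons (27.0%), ahead of Tac1 alone with 44. In the Mrgprd group Nmb alone led with 121 of 379 (31.9%), followed by Nmb with Tac1 in 93. In the Il31ra group Tac1, Nmb, Nppb and Sst were seen together in 15 of 45 neurons (33.3%). Tac1 alone led in the Cd34 group with 110 of 320 neurons (34.4%), Nmb alone in the Mrgpra3 group with 18 of 49 (36.7%), and no peptide gene at all in the Nefh group with 169 of 450 (37.6%). The most genes in any neuron was 8, in the Il31ra neuron with 84 Vip UMIs. Its barcode also had 9 UMIs of Nppb, 8 of Sst and 9 of Il31ra, and whether it held more than 1 cell was not tested.

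For each of the 45 pairs of genes, the number of neurons with a UMI of both was set against the number expected if the genes were independent within 20 bins of equal numbers of neurons by total UMIs. A ratio of 1 means no association at a given depth, and the exact Poisson interval covers the counting error of the number seen. The interval lay above 1 for 11 pairs, below 1 for 6 and spanned 1 for 28. Of the 45 pairs, 16 were expected in fewer than 5 neurons and 6 were seen in none. The plot of pairs shows 1 block of genes seen together, a separate pair and a set of avoided combinations.

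**Figure D5:**
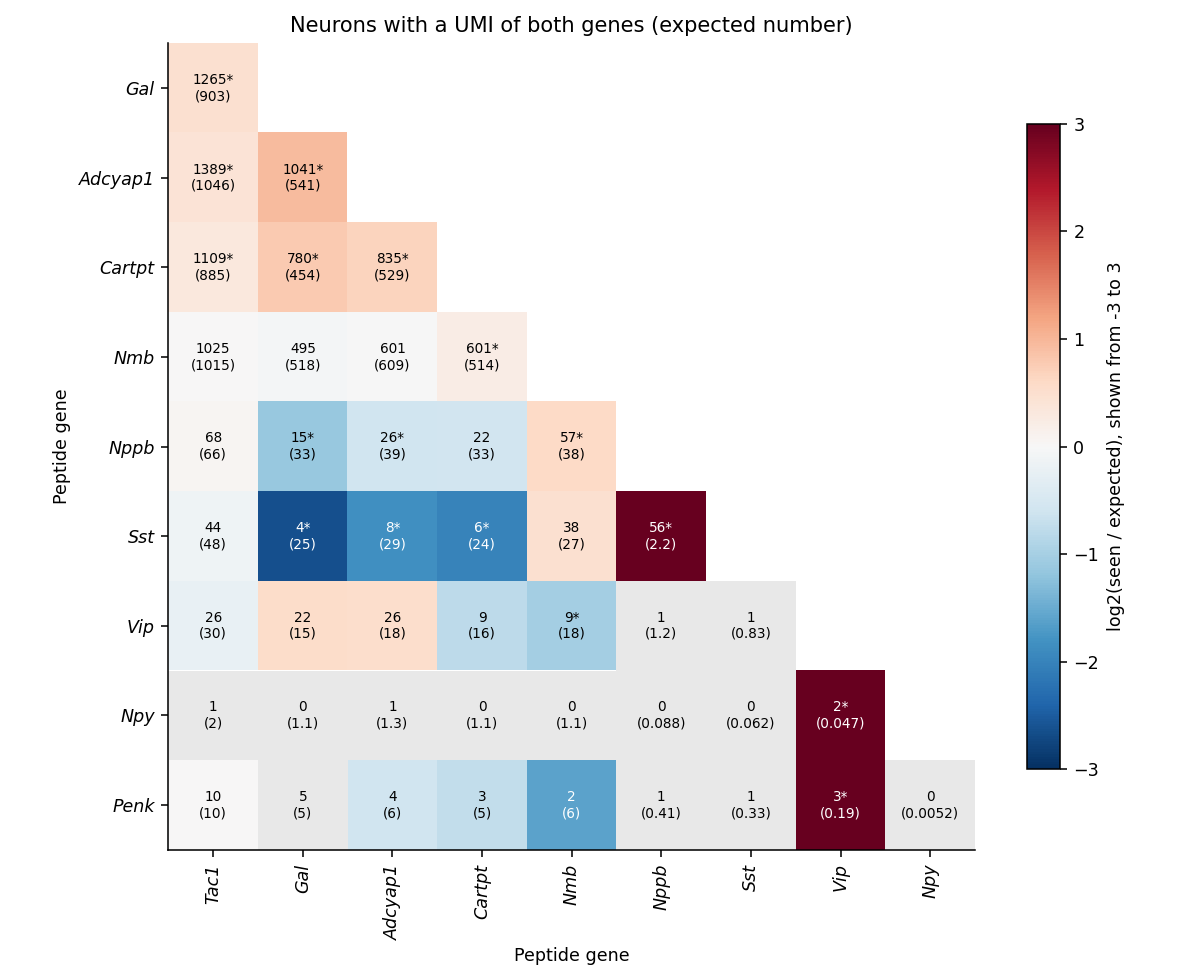
Number of neurons with a UMI of both genes of each pair, with the number expected at equal depth in parentheses, coloured by log2 of seen over expected. Stars mark an exact Poisson 95% interval that excludes 1, and grey boxes pairs without a star that were expected in fewer than 5 neurons. Nppb with Sst was seen in 56 neurons against 2.24 expected, and Gal with Sst in 4 against 24.7.

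The block was formed by Tac1, Gal, Adcyap1 and Cartpt, whose 6 pairs all lay above 1. Gal and Adcyap1 were seen together in 1041 neurons against 541 expected, a ratio of 1.92 (1.81 to 2.04). In terms of shares, 78.7% of neurons with Gal had Adcyap1, whereas 18.7% of those without Gal did. Gal with Cartpt had a ratio of 1.72 (1.60 to 1.84) and Adcyap1 with Cartpt 1.58 (1.47 to 1.69). Pairs with Tac1 had lower ratios, from 1.25 (1.18 to 1.33) with Cartpt to 1.40 (1.32 to 1.48) with Gal. Since Tac1 was present in 66.7% of all neurons, its ratios had less room to rise. Nearly all neurons with Gal had Tac1 as well, 1265 of 1323 or 95.6% (94.4 to 96.7%), and 91.7% of those with Adcyap1 and 85.9% of those with Cartpt. Tac1 itself was 5.49 times (5.38 to 5.60) higher in CPM in neurons with Gal than in those without.

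Much of this association was shared with the grouping. When independence was taken within the 8 sets of neurons, each in 5 bins of total UMIs, the ratio for Gal with Adcyap1 was 1.27 (1.19 to 1.34) and those of the other 5 pairs of the block lay between 1.09 and 1.22, all with intervals above 1. Inside the Calca/Trpv1 group, where each of the 4 genes was common, Gal with Adcyap1 had a ratio of 1.05 (0.966 to 1.13) and Gal with Cartpt 1.09 (0.998 to 1.18). Since most of these neurons had each gene, such ratios could rise little above 1 there. By share, 89.9% (87.4 to 92.1%) of the 683 neurons with Gal had Adcyap1, against 66.2% (59.8 to 72.3%) of the 234 without, and at 1000 UMIs per cell 56.4% against 38.2%. For Cartpt these shares were 78.2% and 48.7%, and 59.2% and 33.6% at 1000 UMIs. The neurons with Gal were deeper, with a median of 4027 UMIs against 2570. The levels differed as well, since Cartpt was at 2283 CPM in Calca/Trpv1 neurons with Gal and 984 in those without, and Adcyap1 at 877 and 417 CPM. Tac1 and Cartpt went the other way, with Tac1 at 7067 CPM in Calca/Trpv1 neurons with Cartpt and 7679 in those without. In the Trpm8 group, Gal with Adcyap1 was seen in 92 neurons against 79.0 expected, a ratio of 1.17 (0.939 to 1.43). Neurons of no group carried the larger excess, with 309 neurons against 143 expected and a ratio of 2.16 (1.92 to 2.41). The other 5 pairs had ratios there from 1.36 (1.21 to 1.53) to 1.83 (1.59 to 2.10). In none of the 7 groups did a pair of the block have an interval above 1. Neurons of no group can be of every kind, so the ratios within the 8 sets do not leave out differences between kinds of neurons.

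Nmb showed little association with most of the block. Its ratio was 1.01 (0.949 to 1.07) with Tac1, which became 0.893 (0.802 to 0.991) at 1000 UMIs per cell, 0.956 (0.874 to 1.04) with Gal and 0.987 (0.910 to 1.07) with Adcyap1. With Cartpt the ratio was 1.17 (1.08 to 1.27), but 1.04 (0.955 to 1.12) within groups and 1.09 (0.936 to 1.26) at 1000 UMIs per cell. By level, Nmb stood at 224 CPM in neurons with Gal and 349.9 in those without, a ratio of 0.641 (0.606 to 0.678).

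Nppb with Sst had the highest ratio among pairs seen in more than 3 neurons, with 56 neurons against 2.24 expected, or 25.0 times (18.9 to 32.5). Within groups the ratio was 1.88 (1.42 to 2.44). Inside the Il31ra group itself 33 neurons had both against 28.6 expected, a ratio of 1.16 (0.795 to 1.62). Since most of these neurons had each gene, that ratio could rise little above 1. Among neurons of no group, which lack a UMI of Il31ra by definition, 20 neurons had both against 0.648 expected. Nppb was also seen with Nmb more often than expected, in 57 neurons at a ratio of 1.51 (1.14 to 1.95), which was 1.17 (0.884 to 1.51) within groups and 1.44 (0.792 to 2.34) at 1000 UMIs per cell. Of the 6 pairs below 1, 5 joined Nppb or Sst to the block: Gal with Sst at 0.162 (0.0442 to 0.415), Sst with Cartpt at 0.251, Adcyap1 with Sst at 0.280, Gal with Nppb at 0.452 and Adcyap1 with Nppb at 0.662. Of these, all but Adcyap1 with Nppb kept an interval below 1 within groups, and Adcyap1 with Nppb also spanned 1 with 2 or 4 neuron genes needed in place of 3 (0.688 and 0.695). With Tac1 the ratios were 1.04 (0.804 to 1.31) for Nppb and 0.912 (0.663 to 1.22) for Sst. At 1000 UMIs per cell they were 0.735 (0.462 to 1.12) and 0.571 (0.313 to 0.923), and the interval for Sst then lay below 1.

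The last pair below 1 was Nmb with Vip, seen in 9 neurons against 18.1 expected, a ratio of 0.497 (0.227 to 0.944). Its interval spanned 1 within groups, at 0.608 (0.278 to 1.15), at 1000 UMIs per cell, at 0.195 (0.00478 to 1.05), and without the 21 neurons with 10 or more Vip UMIs, at 0.797 (0.344 to 1.57). Vip with Npy and Vip with Penk had ratios of 42.9 and 15.6, but from 2 and 3 neurons. Both came from the neurons with 10 or more Vip UMIs, and without these 21 neurons neither pair was seen in any.

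Other peptide genes, receptors of the 10 peptides and genes that process peptides were followed as lists. Of 24 other peptide genes, 20 were in the table, and 4 reached 50 CPM in some set of neurons, a level that 26.2% of all genes in the table reached. Calca and Calcb, the CGRP genes, reached 12458 and 787 CPM in the Calca/Trpv1 group, and Calca was part of the rule for that group. Vgf, whose products include signalling peptides, reached 131 CPM (90.9 to 183) in the Il31ra group. That interval held the 109 CPM of the Nefh and the 106 CPM of the Calca/Trpv1 group. Pomc reached 170 CPM in neurons of no group, beside 3420 CPM in pituitary-like barcodes, which were selected in part by Pomc. The others stayed at or below 35.3 CPM.

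Of 24 receptor genes, 23 were in the table, 22 had a UMI in neurons and 3 reached 50 CPM in a group. Npy2r had 220 CPM (167 to 285) in the Il31ra group, and the neuropeptide Y receptor Npy1r 64.2 CPM in the Calca/Trpv1 group. The natriuretic peptide receptor Npr2 had 57.9 CPM (32.4 to 95.5) in the Il31ra group, an interval that held the 46.2 CPM of the Mrgprd group. Among the rest, 2 were picked after their values were seen: the substance P receptor Tacr1 had a UMI in 7 neurons, and the neuromedin B receptor Nmbr in none of 3855. All 8 processing genes passed 50 CPM. The granin Scg2 was highest in the Il31ra group (2448 CPM), and the granins Chga and Chgb in the Nefh group (513 and 459 CPM). The convertase partner Scg5 and carboxypeptidase Cpe were highest in the Mrgprd group (1485 and 1327 CPM). The amidating enzyme Pam was highest in the Calca/Trpv1 group (373 CPM), and the convertase Pcsk1 in the Nefh group (71.8 CPM). The convertase Pcsk2 had its highest level in the Mrgpra3 group, at 309 CPM (252 to 376). That interval held the 277 CPM of the Trpm8 group, so its lead was not set apart.

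For the 7 peptide genes seen in at least 50 neurons, the genes with the most similar pattern were those with the highest Pearson correlation of log2(CPM + 10) over the 8 sets of neurons, among 10510 genes seen in at least 100 neurons. These are descriptions over 8 points that share depth and libraries. Tac1 was most like Dusp1 (r = 0.976), Gkap1 (0.970) and Usp11 (0.964). Gal was most like Usp11 (0.981), Prdx1 (0.977) and Rxrg (0.963), a retinoid receptor that had 57.2 CPM in the Calca/Trpv1 and 55.6 in the Trpm8 group against 0.306 in the Mrgprd group. Adcyap1 was most like Nfkbiz (0.988), the potassium channel gene Kcnk3 (0.970) and Sfr1 (0.966). Nmb was most like the dynein gene Dync1h1 (0.984), Dkk3 (0.983) and Btbd2 (0.981), of which Dkk3 ran from 4.71 CPM in the Trpm8 to 237 in the Mrgprd group.

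For the itch pair the candidates were low in level. Nppb was most like Gpatch2 (0.994), Zbtb46 (0.989) and Btbd7 (0.981), and Sst most like Peli1 (0.980), Gpatch2 (0.980) and Nr2c1 (0.972). Of these Peli1 reached 147 CPM in the Il31ra group, and the others 34.8 or less, which in a group of 45 neurons is at most 9 UMIs. Cartpt was most like Trove2 (0.980), Cacng4 (0.969) and Ebf4 (0.968).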

How the data were processed

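Dissociated trigeminal ganglion cells of wild type FVB/N mice were profiled in 9 Drop-seq runs. The values used were the UMI counts per gene and barcode deposited by the authors as a single table of 21536 genes and 6997 barcodes with 1000 to 190815 UMIs (median 2031). The submitters' processing notes name bcl2fastq 2.17, STAR 2.5.3a, Seurat 1.4.0.16 and the genome mm10. Barcodes do not name their run, so all of them were 1 sample and no test was made. A total of 528 barcodes ended in N, 6 barcode sequences occurred in 2 columns, and 52 sets of barcodes shared 11 of 12 letters.

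Scripts ran in Python 3.11.15 with numpy 2.4.6, scipy 1.17.1 and matplotlib 3.10.9. UMIs were summed per group and given as CPM. Intervals were exact, at 95%, and sums below 3 UMIs were set to 3 for folds over all genes and for the range over groups. Shares at 1000 UMIs were exact hypergeometric expectations. Glia-like, red blood cell-like and pituitary-like barcodes were taken by marker UMIs. No doublet caller was run, and 354 neurons met more than 1 group rule. Steps were tested on simulated data. Gene positions are of GRCm38 and start windows of RefSeq GRCm38.p6. The 10 peptide genes and all lists were chosen with earlier results of these data known. List genes were named where they reached 50 CPM in a group, and similar genes as the 3 with the highest correlation. Alternatives changed the neuron rule, depth, detection limit, treatment of neurons that met several rules, expected numbers and pseudocount.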

Additional observations from a re-analysis of the deposited data

How the results depend on the processing

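No paired analysis was possible because the barcodes are not tied to the 9 runs, and for the same reason no run could be left out. The share of neurons with at least 1 of the 10 genes, 83.3%, was 69.0% at 1000 UMIs, 78.7% and 85.3% with at least 2 or 4 of the 6 neuron genes, 86.3% with at least 900 genes, 85.1% with at most 5% mitochondrial UMIs and 70.7% where a gene needed 2 UMIs. The share with at least 2 genes, 60.6%, was 41.4%, 56.5%, 62.5%, 63.8%, 62.7% and 44.9% under the same settings. Depth therefore limits every share given. With 2 UMIs needed, 10 pairs lay below 1 in place of 6. At 1000 UMIs, 8 pairs lay above 1 in place of 11 and 9 below. Nmb with Nppb, Nmb with Cartpt, Vip with Penk and Nmb with Vip then spanned 1, and Tac1 with Nmb, Tac1 with Sst, Nppb with Cartpt and Cartpt with Vip came to lie below it. With 2 UMIs needed, Nmb with Nppb and Vip with Penk spanned 1, and Tac1 with Nmb, Gal with Nmb, Nppb with Cartpt and Cartpt with Vip lay below it. Pairs whose interval ended near 1 changed elsewhere. Adcyap1 with Nppb spanned 1 with 2 or 4 neuron genes needed and without depth bins, where Nmb with Vip did too. Nmb with Sst rose above 1 with 2 neuron genes needed (1.52, 1.08 to 2.07), and Adcyap1 with Vip without the deepest 5% of neurons. Nppb with Cartpt fell below 1 under the mitochondrial limit and without neurons that met several rules. The 3 genes named as similar for each of 7 peptide genes made 21 namings, with Usp11 and Gpatch2 each named more than once. Of these namings, 13 recurred with a pseudocount of 1 CPM and 10 among genes seen in at least 500 neurons, in place of 100. A pair of alternatives was chosen after seeing the data. Counting barcodes that shared 11 letters once left 3795 neurons and moved no share, level or pair ratio beyond its interval, but Nmb with Sst then lay above 1 (1.01 to 1.96) and Nppb with Cartpt below it (0.398 to 0.983). Without the 21 neurons with 10 or more Vip UMIs, Vip with Npy and Vip with Penk were each seen in 0 neurons, and Vip in neurons of no group fell to 6.82 CPM. The group with the highest level changed for Penk, from the Il31ra to the Trpm8 group, at 1000 UMIs and without those 21 neurons. For Vip it changed from neurons of no group to the Il31ra group, at 492 CPM, without the deepest 5% of neurons.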
